A study of Mus musculus with 6 samples.

Results

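The genes described here are the hepcidin genes Hamp and Hamp2, the iron sensors and carriers Hfe, Tfr2, Tfrc, Trf and Slc40a1, the ferritin heavy chain gene Fth1, and the metallothionein genes Mt1 and Mt2. The rule took them by name and used no measured value. The genes, the rule and the gene lists used below were nevertheless chosen with earlier results of these data known. A search for these names on the arrays found 12 probes of 10 genes, among 41174 probes of 27962 gene names in all. Hfe and Mt1 each had 2 probes, of which the brighter over all arrays is called the first. The files hold Hamp under its older name Hamp1. A probe named Trfr2 carries the RefSeq accession of Tfr2 and is given as Tfr2.

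Liver RNA came from male 129/Sv mice that were 6 to 8 weeks old when treatment began. Every mouse first received the control liquid diet, then either a liquid diet with 4% ethanol taken freely or a control diet matched in calories with maltose dextran, for 1, 2 or 4 months. RNA from 6 mice was pooled for each diet and time, which gives 6 pools in all. Each alcohol pool was hybridised against the control pool of the same month on 2 two-colour arrays with the dyes exchanged, so the 2 arrays of a month are technical repeats of the same RNA and the variation between mice cannot be seen. Values are log2 ratios of alcohol over control, and the SD is over the 2 arrays of a month.

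Hepcidin is a peptide hormone made by hepatocytes that binds ferroportin, the product of Slc40a1 and the cellular exporter of iron, and causes its degradation. Its transcription is driven by bone morphogenetic proteins (BMP) through SMAD factors and by interleukin 6 through STAT3. HFE and transferrin receptor 2 help hepatocytes to sense iron-loaded transferrin. The mouse carries a second hepcidin gene, Hamp2. Its peptide is not known to control iron in the way that the product of Hamp does. Metallothioneins are small cysteine-rich proteins that bind zinc and copper, and their genes respond to metals, glucocorticoids and inflammatory signals.

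The promoters of the genes that carried the largest ratios are shown first, because the genes of each pair lie close together on the same chromosome. The sequences are the 250 bases before the RefSeq start of each gene in the mouse assembly GRCm38.p6, written 5′ to 3′ on the strand of the gene. Capitals mark matches, on either strand, to the letters GGCGCC of BMP-responsive elements, TTCNNNGAA of STAT elements, and TGCACNC or TGCGCNC of metal response elements. A match is a description of letters and not a known site.

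Hamp, chr7:30944030-30944279, minus strand: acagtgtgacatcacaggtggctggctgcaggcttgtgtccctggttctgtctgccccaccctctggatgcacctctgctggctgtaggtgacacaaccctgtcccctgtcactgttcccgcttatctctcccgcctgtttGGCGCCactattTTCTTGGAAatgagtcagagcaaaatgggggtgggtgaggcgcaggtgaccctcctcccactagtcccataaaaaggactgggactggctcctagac
Hamp2, chr7:30924182-30924431, minus strand: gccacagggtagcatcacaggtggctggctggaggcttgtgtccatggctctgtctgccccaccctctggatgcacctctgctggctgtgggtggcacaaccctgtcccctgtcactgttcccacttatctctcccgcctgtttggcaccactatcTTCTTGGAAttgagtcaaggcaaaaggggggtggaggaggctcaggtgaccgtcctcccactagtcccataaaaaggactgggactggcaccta
Mt1, chr8:94178839-94179088, plus strand: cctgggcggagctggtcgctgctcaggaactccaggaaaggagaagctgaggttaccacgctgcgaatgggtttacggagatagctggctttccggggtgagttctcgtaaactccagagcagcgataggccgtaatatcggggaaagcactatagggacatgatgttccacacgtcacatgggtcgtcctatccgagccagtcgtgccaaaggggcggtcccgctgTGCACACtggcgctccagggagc
Mt2, chr8:94172368-94172617, plus strand: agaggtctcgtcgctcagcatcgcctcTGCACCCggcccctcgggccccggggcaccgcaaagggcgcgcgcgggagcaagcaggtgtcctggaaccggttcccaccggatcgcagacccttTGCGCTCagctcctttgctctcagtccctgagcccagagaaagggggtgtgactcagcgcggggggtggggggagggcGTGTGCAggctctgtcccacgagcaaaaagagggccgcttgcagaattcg

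The Hamp and Hamp2 windows were identical at 227 of 247 aligned bases (91.9%). Both held the STAT-type letters TTCTTGGAA, at 97 to 89 bases before the start in Hamp and at 94 to 86 bases in Hamp2. Only the Hamp window held GGCGCC, at 109 to 104 bases before the start. Of 32851 promoter windows of this length in the RefSeq table, 7.02% held the STAT letters and 9.59% held GGCGCC. The Mt1 and Mt2 windows were less alike, with 126 of 230 aligned bases identical (54.8%). The Mt1 window held 1 match to the metal response letters and the Mt2 window held 3, whereas 21.4% of all windows held at least 1. The letters CACGTG of the E-box, present in 6.02% of all windows, were in none of the 4. The windows depend on where RefSeq places each start, and bases outside them were not searched. In the order of genes on chromosome 7, 1 pseudogene (Usf2-ps1) lies between Hamp and Hamp2, and 0 annotated genes lie between Mt1 and Mt2 on chromosome 8.

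On every array all 12 probes exceeded background clearly in the alcohol and in the control channel, and none was saturated. The hepatocyte markers were also measured, with 7 of the 8 listed genes tested and 0 of those 7 below background in both pools. Over 27900 probes well above background in both channels of every array, the ratios of the 2 arrays of a month correlated across probes with r = 0.16 in the first pair, -0.30 in the 2-month pair and -0.32 in the 4-month pair. At the later months the part of a ratio that turned with the dyes varied more over these probes (SD 0.25 and 0.31) than the mean of the 2 arrays did (SD 0.19 and 0.22), so the value of each array is given for the 12 probes. The 1-month arrays were on 1 slide and the 2- and 4-month arrays on another, so slide and an early against a late time cannot be told apart. The RNA was of whole liver, in which fewer cells of a type and less RNA per cell cannot be told apart.

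Hamp2 had the largest difference of the hepcidin and iron genes, and its direction turned between 1 and 2 months. At 1 month its log2 ratio was 0.99 with alcohol in Cy5 and 1.20 with alcohol in Cy3, with a mean of 1.09 ± 0.15 (SD, n = 2 arrays), or 2.13-fold higher in the alcohol pool. At 2 months the arrays gave -1.24 and -1.61, with a mean of -1.43 ± 0.26, or 2.69-fold lower. At 4 months they gave -1.41 and -1.18, with a mean of -1.29 ± 0.17, or 2.45-fold lower. At every month both arrays lay on the same side of 0 and the mean was at least 5 times its SD. A turn of this kind, at least 2-fold one way at 1 month and at least 2-fold the other way at both 2 and 4 months, was met by 2 of 37922 probes tested (0.00527%). It was worded after the Hamp2 values were seen, so Hamp2 meets it by construction and the share is a description only. The other was a probe of Car3, a carbonic anhydrase gene of liver, muscle and fat, with mean log2 ratios of 1.25, -1.23 and -1.10.

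Hamp, the gene of the iron hormone itself, differed less between the pools and in the other direction. At 1 month the arrays gave log2 ratios of -0.20 and -0.23, with a mean of -0.22 ± 0.019. At 2 months they gave 0.53 and 0.72, with a mean of 0.62 ± 0.14, or 1.54-fold higher in the alcohol pool. At 4 months they gave 0.058 and 0.59, with a mean of 0.32 ± 0.38, where both arrays lay above 0 but their spread was as large as the mean. The ratio was thus below 0 on both 1-month arrays and above 0 on all 4 later arrays.

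The 2 hepcidin genes were set against each other within each array, as the log2 ratio of Hamp2 minus that of Hamp. With alcohol in Cy5 and in Cy3 in turn, the difference was 1.19 and 1.43 after 1 month. It was -1.77 and -2.33 after 2 months, and -1.47 and -1.76 after 4 months. The 2 genes differed in response on every array, in one direction at 1 month and in the other at both later months. The transcripts of the 2 genes are close in sequence. How far each probe detects the other transcript was not tested, since no probe sequences were used here.

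**Figure D1:**
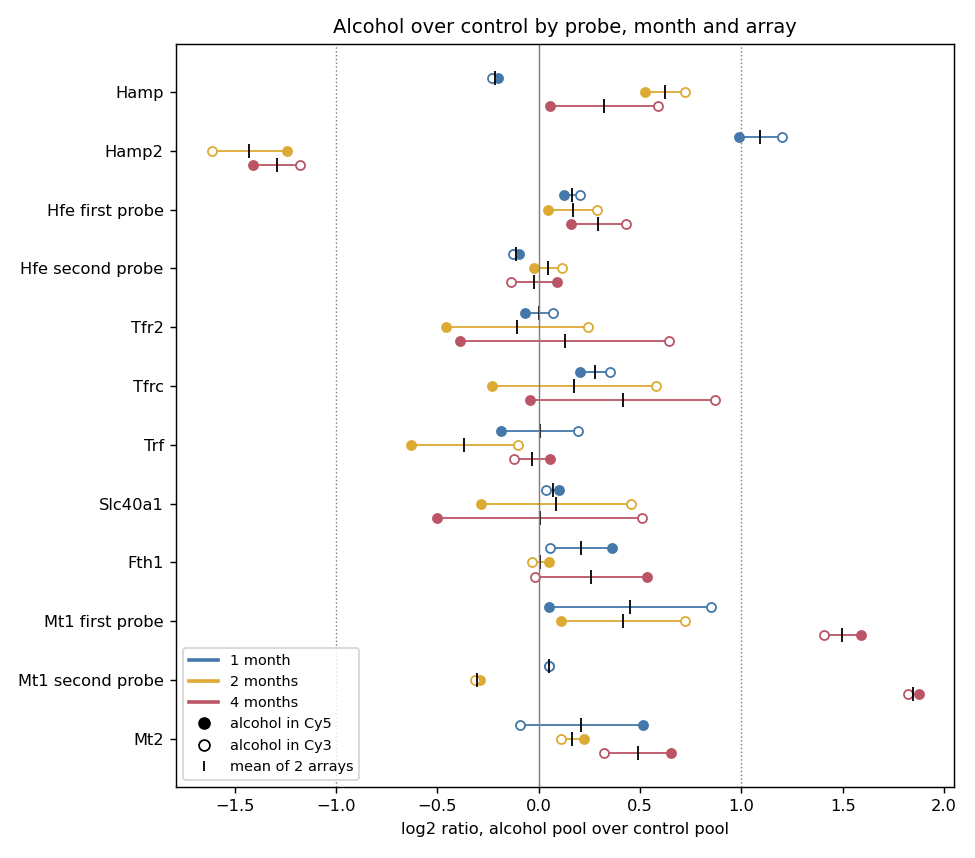
Log2 ratio of alcohol over control (x axis) for the 12 probes (y axis), with filled points for arrays with alcohol in Cy5, open points for alcohol in Cy3, a line joining the 2 arrays of a month and a tick at their mean. Dotted lines mark 2-fold. The mean of Hamp2 lies beyond 2-fold to the right at 1 month and to the left at 2 and 4 months. Its 1-month array with alcohol in Cy5, at 0.99, falls just short of 2-fold. Both Mt1 probes lie beyond 2-fold at 4 months, and the points of Tfrc, Tfr2 and Slc40a1 fall on opposite sides of 0 at the 2 later months.

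The levels of each pool show how much of the Hamp2 pattern lay in either pool. A level here is the log2 processed signal minus the 75th percentile of its channel, averaged over the 2 arrays, and is compared only within a probe. The Hamp2 level of the control pools was 3.11, 2.23 and 2.89 after 1, 2 and 4 months. That of the alcohol pools was 4.21, 0.80 and 1.60. The alcohol pools therefore spanned 3.41 and the control pools 0.88 on this log2 scale, and the 2 arrays of a pool differed with an SD of at most 0.35. Under loess and Aquantile scaling the step of the Hamp2 control pools from 1 to 2 months was -1.35 in place of -0.88. The Hamp level of the control pools was 3.88, 4.26 and 3.78, and that of the alcohol pools was 3.67, 4.88 and 4.10. For Hamp the 2-month alcohol pool was the highest of the 6 on this scale. Under loess and Aquantile scaling its control step from 1 to 2 months turned from 0.37 to -0.17, so the direction of that step depends on the scaling. Of the 12 probes, 6 had control pools that spanned at least 1 on the log2 scale over the months, or 5 under loess and Aquantile scaling. The same count over all probes was not made, so this number is a description only. Slide and an early against a late time cannot be told apart in levels set across months.

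**Figure D2:**
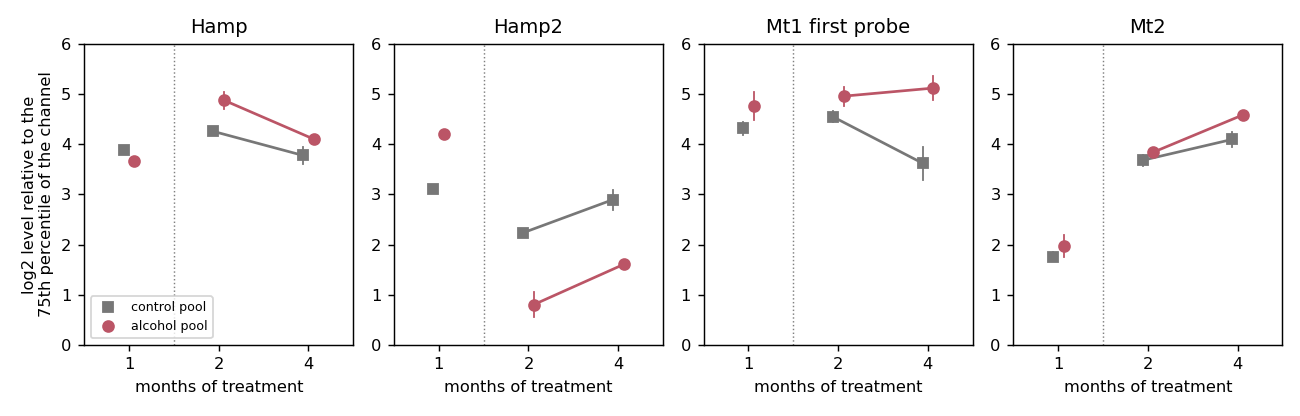
Log2 level relative to the 75th percentile of the channel (y axis) of Hamp, Hamp2, the first Mt1 probe and Mt2 in the control pools (squares) and alcohol pools (circles) after 1, 2 and 4 months (x axis), with vertical bars from one array to the other. The dotted line separates the 2 slides, and lines join pools of 1 slide. The Hamp2 alcohol pool is above the control pool at 1 month (4.21 against 3.11) and below it at 2 months (0.80 against 2.23), and the 4-month control pool has the lowest Mt1 level (3.62).

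Mt1 was the metallothionein gene with the largest ratios, and both of its probes were high at 4 months. The first probe is printed at 10 spots on each array. At 1 month its log2 ratio was 0.050 with alcohol in Cy5 and 0.85 with alcohol in Cy3, with a mean of 0.45 ± 0.56. At 2 months it was 0.11 and 0.72, with a mean of 0.41 ± 0.43. At 4 months it was 1.59 and 1.40, with a mean of 1.496 ± 0.13, or 2.82-fold higher in the alcohol pool. All 6 arrays lay above 0, but at 1 and 2 months the SD of the 2 arrays was as large as the mean, whereas at 4 months the 2 arrays lay close together.

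The second Mt1 probe, for the transcript BC027262, gave nearly equal values on the 2 arrays of each month. They were 0.049 and 0.051 after 1 month (mean 0.050 ± 0.0010), -0.29 and -0.31 after 2 months (mean -0.30 ± 0.016), and 1.87 and 1.82 after 4 months (mean 1.85 ± 0.039, or 3.60-fold higher). The 2 Mt1 probes thus agreed in direction at 4 months but not at 2 months, when the second lay below 0 on both arrays and the first above 0 on both.

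The pools behind the 4-month ratio differed between the Mt1 probes. On the first probe the alcohol pools stood at 4.77, 4.96 and 5.12 at 1, 2 and 4 months, and the control pools at 4.31, 4.55 and 3.62, so the 4-month control pool was the lowest. On the second probe the alcohol pools stood at -2.17, -0.76 and 1.34, and the control pools at -2.22, -0.45 and -0.51, so the 4-month alcohol pool was the highest. Under loess and Aquantile scaling the control step from 1 to 2 months turned from 0.23 to -0.039 on the first probe. On the second probe it went from 1.77 to 2.03.

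Mt2, the neighbour of Mt1, had smaller ratios. Its 1-month arrays gave 0.51 and -0.091 (mean 0.21 ± 0.43), and its 2-month arrays 0.22 and 0.11 (mean 0.17 ± 0.080). Its 4-month arrays gave 0.65 and 0.32 (mean 0.49 ± 0.23, or 1.40-fold). It lay above 0 on 5 of 6 arrays and did not pass 1.5-fold at any month. At 4 months the log2 ratio of the first Mt1 probe exceeded that of Mt2 by 0.94 and 1.08 on the 2 arrays. At 1 and 2 months that difference had opposite signs on the 2 arrays (-0.46 and 0.94, then -0.11 and 0.61).

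The repeated spots of the first Mt1 probe and of Tfrc separate the spread within an array from that between arrays. At 1 month the 10 Mt1 spots ran from -0.027 to 0.21 with alcohol in Cy5 and from 0.74 to 0.95 with alcohol in Cy3. These ranges did not overlap, although both arrays held the same 2 pools. At 4 months the ranges were 1.28 to 1.93 and 1.15 to 1.97, which overlapped almost fully. For Tfrc at 2 months the spots ran from -0.39 to -0.045 with alcohol in Cy5 and from 0.41 to 0.68 with alcohol in Cy3. The spots of 1 array thus agreed closely with each other on a value that the other array did not give.

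**Figure D3:**
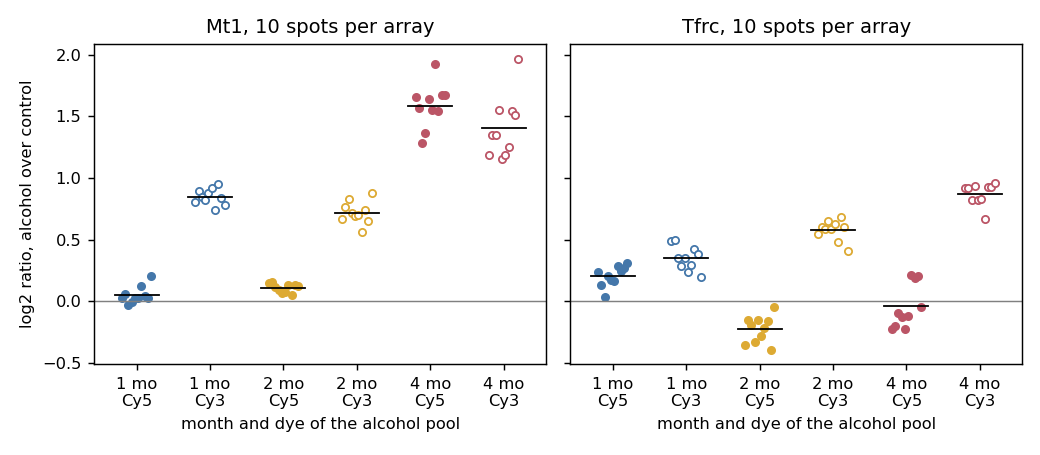
Log2 ratio of alcohol over control (y axis) at each of the 10 spots of the first Mt1 probe (left) and of the Tfrc probe (right) on each of the 6 arrays (x axis, month and dye of the alcohol pool), with a bar at the mean. The Mt1 spots of the 2 arrays overlap at 4 months and not at 1 or 2 months, and the Tfrc spots lie on opposite sides of 0 on the 2 arrays at 2 months.

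Among the iron sensors, Hfe, whose product binds transferrin receptors and acts upstream of hepcidin, had small ratios. The first probe gave 0.13 and 0.21 after 1 month (mean 0.17 ± 0.056). It gave 0.045 and 0.29 after 2 months (mean 0.17 ± 0.17), and 0.16 and 0.43 after 4 months (mean 0.29 ± 0.19). All 6 arrays lay above 0, on a probe whose largest monthly mean was 1.23-fold. The second Hfe probe gave -0.098 and -0.13 after 1 month (mean -0.11 ± 0.021). It gave -0.024 and 0.11 after 2 months (mean 0.045 ± 0.098), and 0.089 and -0.14 after 4 months (mean -0.025 ± 0.16). It lay above 0 on 2 of 6 arrays. The first probe exceeded the second on all 6 arrays, by 0.069 to 0.57, so the 2 probes disagree on Hfe.

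Tfr2, the hepatocyte receptor that senses transferrin, had means close to 0. Its log2 ratios were -0.066 and 0.070 after 1 month (mean 0.0022 ± 0.096), -0.46 and 0.25 after 2 months (mean -0.11 ± 0.50), and -0.39 and 0.64 after 4 months (mean 0.13 ± 0.73). The 2 arrays lay on opposite sides of 0 at every month.

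Of the genes for iron uptake, Tfrc, the receptor that brings iron-loaded transferrin into cells and whose mRNA is stabilised when iron is low, lay above 0 on both arrays at 1 month only. Its log2 ratios were 0.21 and 0.35 at 1 month (mean 0.28 ± 0.10), -0.23 and 0.58 at 2 months (mean 0.17 ± 0.57), and -0.042 and 0.87 at 4 months (mean 0.41 ± 0.65). The larger mean at 4 months came from 1 of the 2 arrays. Trf, the plasma iron carrier made by hepatocytes, gave -0.18 and 0.19, then -0.63 and -0.10, then 0.057 and -0.12. Its mean was lowest at 2 months, at -0.37 ± 0.37, the only month at which both arrays were on the same side of 0.

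Slc40a1, the iron exporter that hepcidin acts on, had mean log2 ratios of 0.069 ± 0.044, 0.084 ± 0.52 and 0.0047 ± 0.71. The 1-month arrays gave 0.0997 and 0.038, the 2-month arrays -0.29 and 0.45, and the 4-month arrays -0.50 and 0.51, so the later means are averages of opposite values. Fth1, the ferritin subunit that oxidises iron for storage, gave 0.36 and 0.055 after 1 month (mean 0.21 ± 0.22), 0.049 and -0.032 after 2 months (mean 0.0083 ± 0.058), and 0.54 and -0.016 after 4 months (mean 0.26 ± 0.39). Neither gene passed 1.5-fold at any month.

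In most of these genes the pool levels differed more between months than between diets. Tfrc stood at -1.30, -3.06 and -2.80 in the control pools after 1, 2 and 4 months and at -1.02, -2.89 and -2.39 in the alcohol pools. Mt2 stood at 1.76, 3.68 and 4.10 in the control pools and at 1.97, 3.84 and 4.59 in the alcohol pools. The 1-month pools of both diets were thus the highest for Tfrc and the lowest for Mt2. Fth1 had control levels of 3.93, 5.10 and 4.48 and alcohol levels of 4.14, 5.10 and 4.75. Tfr2 had 1.90, 2.99 and 2.43 against 1.91, 2.88 and 2.56, and Slc40a1 had 0.80, 1.55 and 1.71 against 0.87, 1.63 and 1.71. For all of these the step between the 1-month and the 2-month pools, which lay on different slides, exceeded the difference between the diets at either month on this scale. Under loess and Aquantile the control step from 1 to 2 months went from -1.76 to -1.14 for Tfrc, from 1.92 to 1.45 for Mt2, from 1.17 to 0.53 for Fth1, from 1.09 to 0.58 for Tfr2 and from 0.76 to 0.36 for Slc40a1. Trf had 5.02, 5.01 and 4.51 against 5.02, 4.64 and 4.48, and the first Hfe probe had -0.73, -0.35 and -0.51 against -0.56, -0.18 and -0.21. Their control steps from 1 to 2 months went from -0.0030 to -0.28 for Trf and from 0.38 to 0.44 for Hfe under that scaling.

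Counts over the 12 probes were set beside those of all 37922 probes tested, where a probe counts when its mean passes the fold and both arrays lie on that side of 0. At 1 month 1 probe was at least 2-fold higher (Hamp2, against 0.142% of all probes) and 0 were at least 2-fold lower (against 0.0949%). At 2 months 0 were higher (against 0.237%) and 1 was lower (Hamp2, against 0.179%). At 4 months 2 were higher (both Mt1 probes, against 0.432%) and 1 was lower (Hamp2, against 0.324%). At 1.5-fold the counts were 1 higher and 0 lower at 1 month (all probes 0.562% and 0.63%), 1 and 1 at 2 months, with Hamp added (1.17% and 1.28%), and 2 and 1 at 4 months (2.03% and 1.46%). Thus 7 of the 10 genes passed neither fold at any month.

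The 12 probes had median log2 ratios of 0.12, 0.065 and 0.28 at the 3 times, beside medians of 0, 0.0091 and -0.0086 over all probes tested. Both arrays lay on the same side of 0 for 9, 7 and 6 of the 12 probes at the 3 months, beside 45.8%, 35.1% and 32.2% of all probes. Being on 1 side of 0 on all 6 arrays was seen for the first Hfe and first Mt1 probes, and for 3.86% of all probes.

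With the 3 months taken as the replicates of alcohol against control, no probe passed an adjusted p of 0.05 in limma (0% of all probes). At an unadjusted limma p under 0.05, 4 of the 12 probes were called (Tfrc, the first Mt1 probe, Mt2 and the first Hfe probe), beside 7.98% of all probes (3028). With the slide as a block Tfrc alone kept that call, and the first Mt1 probe, Mt2 and the first Hfe probe lost it (limma adjusted p = 0.693 for each of these genes). The first Mt1 probe had an effect of 0.79 ± 0.24 (SE, 95% interval 0.17 to 1.40, limma unadjusted p = 0.0220, adjusted p = 0.620). Without the 4-month pools that effect was 0.43 (limma adjusted p = 0.962). In that fit the first Mt1 probe alone kept its unadjusted call. Tfrc, Mt2 and the first Hfe probe lost theirs (limma unadjusted p = 0.0591, 0.0837 and 0.109). Tfrc had 0.29 ± 0.073 (limma adjusted p = 0.620), although its 2 arrays had opposite signs at 2 of the 3 months, since that spread is averaged out before the fit. The limma adjusted p was 0.620 also for Mt2 (effect 0.29 ± 0.087, or 0.19 without the 4-month pools) and for the first Hfe probe (0.21 ± 0.064). The effect of Hamp was 0.24 ± 0.17 (limma adjusted p = 0.723) and that of Hamp2 was -0.54 ± 0.53 with an interval of -1.92 to 0.84 (limma adjusted p = 0.800), a mean over months of opposite direction. Without the 1-month pools the effect of Hamp2 was -1.36 (limma adjusted p = 0.378) and that of Hamp was 0.47 (limma adjusted p = 0.384), both then at an unadjusted p under 0.05. Both were smaller in 3 other fits (limma adjusted p of 0.722 or more), in which Hamp2 came to -0.10 without the 2-month pools, -0.17 without the 4-month pools and -0.13 with the slide as a block. Hamp came to 0.054, 0.20 and 0.13 in the same fits.

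The slope of the ratio on the log2 of the month gave 0 probes at an adjusted limma p under 0.05 (0% of all probes) and 2 of the 12 at an unadjusted p, Hamp2 and the first Mt1 probe, beside 7.42% of all probes (2813). The slope of Hamp2 was -1.19 ± 0.38 per doubling of time (95% interval -2.24 to -0.14, limma unadjusted p = 0.0341, adjusted p = 0.656). The slope of the first Mt1 probe, also per doubling of time, was 0.52 ± 0.18 (limma unadjusted p = 0.0395, adjusted p = 0.658), and that of the second was 0.90 ± 0.36 (limma unadjusted p = 0.0661, adjusted p = 0.711). With no filter on background both calls were lost at the same slopes (limma unadjusted p = 0.131 for Hamp2 and 0.126 for the first Mt1 probe). On the month itself in place of its log2, the slope of Hamp2 was -0.67 per month and lost its call (limma unadjusted p = 0.0871, adjusted p = 0.789). The slopes of the 2 Mt1 probes were then 0.38 and 0.67 per month, both at an unadjusted p under 0.05 (limma adjusted p = 0.565 and 0.592). With 3 monthly values and slide tied to time, these fits have 2 and 1 residual degrees of freedom before moderation.

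The genes around hepcidin were counted on lists of named genes, each gene by its first probe. Beside each list count stands the share of all probes past 1.5-fold, which for the 1-month arrays was 0.562% higher and 0.63% lower, for the 2-month arrays 1.17% and 1.28%, and for the 4-month arrays 2.03% and 1.46%. On the BMP, SMAD and matriptase list, 1 of 17 genes was higher at this fold at 2 and at 4 months and 0 were lower at any month, with list medians of 0.025, 0.012 and 0.031 at the 3 months. That gene was Id1, a BMP target that often moves with hepcidin, with log2 ratios of 1.12 and 0.53 after 2 months, then 1.21 and 1.43. Its signal was well above background in both alcohol arrays but in only 1 of 2 control arrays at those months. After 1 month neither pool reached that level on either array. The rule behind the share of all probes, which asks for no such level in the month itself, would count Id1 then too, but neither its 1-month ratio nor its fit over the months, which uses that ratio, is read here. The ligand Bmp6 had means of 0.090, 0.14 and 0.20 and the protease gene Tmprss6, an inhibitor of hepcidin, had means of -0.029, -0.18 and -0.041, with the 2 arrays on opposite sides of 0 at each month (-0.57 and 0.22 at 2 months, -0.63 and 0.55 at 4 months).

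On the interleukin 6, STAT3 and acute phase list, 0 of 19 genes passed 1.5-fold at 1 month (all probes 0.562% higher and 0.63% lower). At 2 months 1 was higher (all probes 1.17%). At 4 months 1 was higher and 2 were lower (all probes 2.03% and 1.46%). Lcn2, a siderophore-binding acute phase protein, was the higher gene at both times, with a mean of 1.28 ± 0.47 at 2 months and 1.04 ± 0.47 at 4 months. The serum amyloid genes Saa2 and Saa3 were the lower ones at 4 months, at -0.77 ± 0.10 and -0.97 ± 0.49. The list medians were 0.059, -0.10 and 0.00017. Saa1 had means of 0.053, -0.14 and -0.25, and all 3 serum amyloid genes lay below 0 on both arrays at 2 and 4 months.

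On the iron and heme transport list, 1 of 20 genes tested passed 1.5-fold (2.03% of all probes were higher at 4 months). It was Hmox1, the heme oxygenase that frees iron from heme, at 0.63 ± 0.14 at 4 months. The list medians were 0.087, 0.029 and 0.0042. Of 7 genes for iron storage and iron regulatory proteins, 0 passed 1.5-fold at any month. On the zinc and copper list, 1 of 13 genes was lower at 1 month, beside 0.63% of all probes (Slc30a10, a manganese and zinc exporter, at -0.66 ± 0.075). At 4 months 1 was higher, beside 2.03% of all probes (Mt4, a further metallothionein gene, at 0.92 ± 0.27). Mtf1, the metal-sensing factor that drives metallothionein genes, had means of 0.0024, -0.14 and -0.00016, and the zinc exporter gene Slc30a1, another of its targets, had means of -0.024, -0.018 and 0.19.

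The glucocorticoid target list had the largest medians of the 6 lists at each month, at 0.12, 0.45 and 0.69 for 7 genes tested. At 1.5-fold 0 genes were higher at 1 month, 3 at 2 months and 4 at 4 months, and 0 were lower at any month, beside the 0.562%, 1.17% and 2.03% of all probes that were higher. The 4 genes were Fkbp5, a cochaperone of the glucocorticoid receptor (0.38, 0.59 and 0.80), the kinase gene Sgk1 (0.45, 0.45 and 1.23), Tat, a tyrosine-degrading enzyme of hepatocytes (0.27, 0.61 and 0.69, the last with an SD of 0.93), and the phosphatase gene Dusp1 (-0.43, 0.63 and 1.27). Over the 3 months, 4 of the 7 (Fkbp5, Sgk1, Tat and Tsc22d3, but not Dusp1) had an unadjusted limma p under 0.05 (7.98% of all probes) and 0 an adjusted one. Tsc22d3 had means of 0.12, 0.27 and 0.30, the last 2 with arrays on opposite sides of 0. At the same unadjusted limma p the BMP list had 2 of 17 genes (Atoh8, and Id1 with the limit given above), the acute phase list 3 of 19, the iron and heme transport list 2 of 20, the storage list 0 of 7 and the zinc and copper list 2 of 13, with 0 at an adjusted p on any list.

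**Figure D4:**
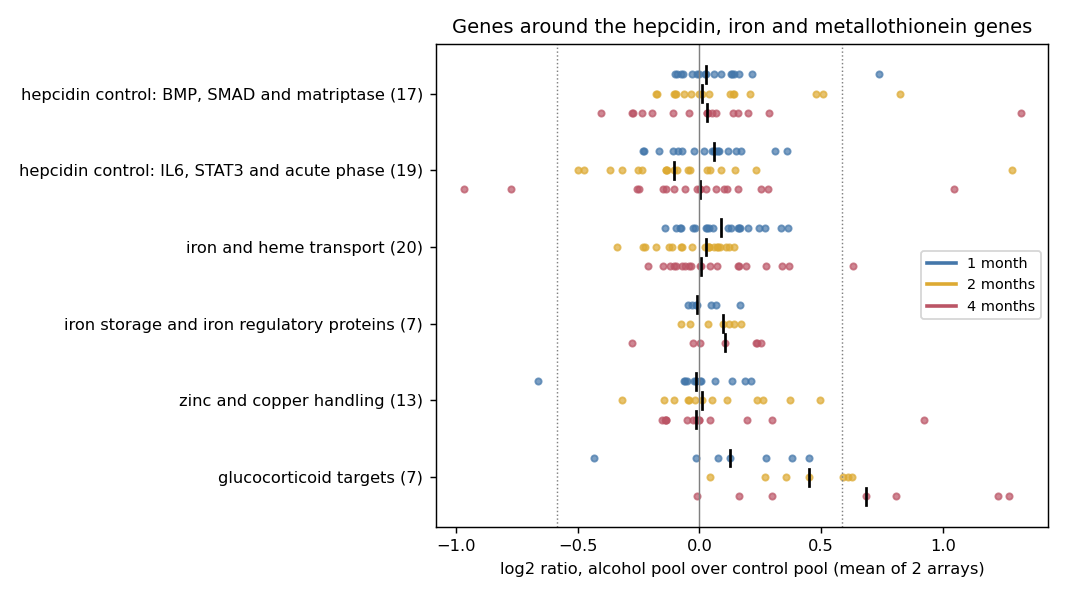
Mean log2 ratio of alcohol over control (x axis) of each gene on 6 lists (y axis, number of genes tested in parentheses) at 1, 2 and 4 months, with a black bar at the median and dotted lines at 1.5-fold. The medians stay near 0 except for the glucocorticoid targets, which reach 0.45 at 2 months and 0.69 at 4 months, and Id1 and Lcn2 are the genes farthest to the right on the 2 hepcidin control lists.

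The genes whose 6 single-array ratios were nearest to those of Hamp and Mt1 were sought among 27888 probes, by the root mean square difference in log2 ratio. Nearest to Hamp was Herpud1, a gene of the endoplasmic reticulum stress response, at a difference of 0.0735 and with means of -0.23, 0.60 and 0.40. The next 4 names (Nat8f5, Ppip5k2, AF103797 and 1700003O08Rik) lay at 0.133 to 0.140. Nearest to the first Mt1 probe were Noct, a circadian gene (0.304, means 0.35, 0.31 and 1.34), and Sgk1 (0.313), followed by Lepr, Cyp2a5 and E030002G19Rik at 0.385 to 0.388. For Hamp2, searched after its values were seen, the nearest were Car3 (0.481) and Dsg1c (0.487). These are orders of likeness over 6 arrays of 3 pool pairs, given with no test.

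Markers of other cells also moved with some months. At 1 month, when Hamp2 was higher, the hemoglobin genes Hba-a1 and Hbb-b1 were higher in the alcohol pool by 1.51 and 1.97 on the log2 scale. These were 2 of 9 erythroid genes tested (0.562% of all probes were 1.5-fold higher at 1 month), and the summed erythroid level was 6.48 in the alcohol pool and 4.91 in the control pool. The 2-month sums were 5.71 and 5.88, and the 4-month sums 5.46 and 4.97. At 4 months, when Hamp2 was lower, Hba-a1 and Hbb-b1 were higher too, by 0.61 and 0.63. At 1.5-fold 3 of the 9 erythroid genes were then higher and 1 was lower (2.03% and 1.46% of all probes). At 2 months 0 were higher and 1 was lower (1.17% and 1.28% of all probes). Alas2, the erythroid enzyme that starts heme synthesis, another gene of that list, had means of 0.048, -0.75 and -2.00. Also at 1 month 1 of 11 macrophage genes (Adgre1, 1.23 ± 0.74) and 1 of 8 endothelial genes (Lyve1, 0.95) passed 1.5-fold, with list medians of 0.23 and 0.35. The summed macrophage level was 5.09 in the alcohol pool and 4.95 in the control pool, and the summed endothelial level was 3.40 and 3.10. Of 7 stellate cell genes, 0 passed 1.5-fold at 1 or 2 months and 1 (Reln, -0.67) was lower at 4 months. The macrophage gene Marco (0.61) passed it at 2 months and the hepatocyte gene Alb (0.59) at 4 months.

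At 4 months, when Mt1 was higher, 7 of 13 pancreatic acinar genes were at least 1.5-fold higher in the alcohol pool (2.03% of all probes), with a median of 0.66 and a summed level of 4.99 against 4.66. The largest was Cela2a, an elastase gene, at 3.75, followed by Pnliprp1 at 2.42 and Cpb1 at 2.17, and the other 4 (Cela1, Cpa1, Pnlip and Prss2) lay between 0.66 and 0.95. At 1 and 2 months 0 of the 13 passed 1.5-fold, with medians of -0.051 and 0.016. The part of these cells in the Hamp2, Mt1 or Tfrc ratios was not tested.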

How the data were processed

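Livers of mice fed alcohol or control diet were profiled on 6 two-colour Agilent arrays, 2 with exchanged dyes for each of 3 months. The authors deposited Feature Extraction 9.1.1.1 output, which holds background-corrected, dye-normalized signal intensity for either channel and a log10 ratio of Cy5 over Cy3 for each of 45018 spots. A deposited value table holds ratios already turned to alcohol over control, and was used as an alternative. For 100% of 40929 single-spot probes the 2 sources were within 0.02 on the log2 scale. The members with repeated spots, Tfrc and the first Mt1 probe, differed by more at some months. Tfrc had 0.363, 0.096 and 0.345 in that table at 1, 2 and 4 months, against 0.278, 0.175 and 0.415 in the main setting. The first Mt1 probe had 0.416, 0.407 and 1.42, against 0.449, 0.414 and 1.496.

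Control spots were removed, and outlier flags were set on 0 of the spots. The deposited log10 ratios were turned to alcohol over control by the labelled dyes, put on the log2 scale, and averaged over spots and over the 2 arrays of a month. Between 73.3% and 90.3% of spots were well above background in a channel. A month has 1 pair of pools and so no test. The deposited log10 ratio error served as weights in an alternative; deposited p-values were not used. The 3 monthly log2 ratios were fitted with limma 3.58.1 in R 4.3.3 over the 37922 probes that stood well above background in some channel of some array. The mean was tested against 0, and a slope was fitted to log2 of the months, with Benjamini-Hochberg adjustment at 0.05. The fit was also run on simulated data with known changes, where noise was independent and no slide was tied to time. That run therefore does not show what the fit can call in these data.

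The genes, gene lists and rules were chosen with earlier results of these data known. Each of the 6 pathway lists names genes past 1.5-fold at any month, at most 5 by the size of the mean, by the probe with the highest signal. Likeness lists hold 5 names, and promoters of Hamp, Hamp2, Mt1 and Mt2 are shown. Of 23848 RefSeq accessions on the array, 22951 gave a current symbol in the RefSeq table of GRCm38.p6; the build of the array design is not given in the sources used here. Genes of the lists that had no matching name (Flvcr1, Zbtb16, Serpina1a, Hbb-b2 and Try4) were not analysed here. Alternatives were normexp with an offset of 50 and loess, the value table, single dye orientations, error-weighted means, median centring, other filters, 1.5-fold, leaving out each month, the slide as a block, and the month itself as time scale. Pool levels were also scaled by loess and Aquantile.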

Additional observations from a re-analysis of the deposited data

Results flagged for a closer look

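For 3 probes every array of one month lay on one side of 0 and every array of another month on the other side. This rule sets no size, and the second Mt1 probe met it with 0.049 and 0.051 at 1 month. The share of all probes that meet it was not taken, so the count is a description only. These differences between months were not tested, since a month has 1 pair of pools. For Hamp the log2 ratio at 2 months exceeded that at 1 month by 0.84, and the ratio at 4 months exceeded it by 0.54. For Hamp2 the ratio at 2 months minus that at 1 month was -2.52, and at 4 months minus 1 month it was -2.39. For the second Mt1 probe the ratio at 2 months minus that at 1 month was -0.35, and at 4 months minus 2 months it was 2.15. The 1-month arrays were on another slide than the later ones, which touches each difference from 1 month but not the difference of 2.15 between 2 and 4 months, whose arrays shared 1 slide.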

How the results depend on the processing

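Under normexp with loess, the value table and median centring, 107 of 108 monthly ratios of the member probes moved by no more than the SD of the 2 arrays, and 1 (the second Mt1 probe at 1 month) moved further. With a single array the sign depended on the dyes for 14 of the 36 probes and months. The count of probes at least 2-fold different at 1 month fell from 1 to 0 with the alcohol-in-Cy5 array alone, where Hamp2 was 0.99, and at 2 months it was 2 at 1.5-fold. The effect over the months gave 0 of all probes at an adjusted p, 9 with normexp and loess, and 6 with the filter on both channels of all arrays. None of these was one of the 12. Members at an unadjusted p numbered 4, 5 with normexp and loess (Fth1 added), 3 with no filter (the first Mt1 probe lost) and 1 (Tfrc) with the slide as a block. Leaving out a month gave 1 to 4, with the first Mt1 probe alone without month 4 and 3 without month 2 (the first Hfe probe lost). Without month 1 they were Tfrc, the first Mt1 probe, Hamp2 and Hamp, with Mt2 and the first Hfe probe lost. The slope gave 0 of all probes at an adjusted p and 50 with normexp and loess, 0 of them members. Members with an unadjusted p for the slope numbered 2, 0 with no filter, 3 with normexp and loess and 3 with the both-channel filter (the second Mt1 probe added in each), and 2 on the month itself, where Hamp2 was lost and the second Mt1 probe added. The share of all probes at that limma p was taken for the main fits only (7.98% for the effect, 7.42% for the slope). That share can change with the setting, so the changes in these member counts are descriptions only.

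Over all alternatives the adjusted limma p ranged from 0.404 to 0.962 for the effect of the first Mt1 probe, from 0.374 to 0.962 for Tfrc, and from 0.220 to 0.789 for the slope of Hamp2. Some estimates changed sign: with each month left out in turn the effect ranged from -0.069 to 0.010 (without month 1) for the second Hfe probe, from -0.052 (without month 4) to 0.065 for Tfr2, and from -0.13 (without month 4) to 0.95 for the second Mt1 probe, the slope of Trf was 0.0055 with normexp and loess and 0.014 on the month itself, and the slope of Tfrc was -0.0088 with the value table. With loess and Aquantile the step in the control pools from 1 to 2 months moved beyond the array spread for 9 of 12 probes. The same count over all probes was not made. The sign of the step turned for Hamp (0.37 to -0.17) and for the first Mt1 probe (0.23 to -0.039). The cause was not tested. All arrays of a month share 1 pair of pools of 6 mice, so the number of pools limits every statement.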
